A study of Mus musculus with 8 samples.

Results

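Amino acid catabolism and the urea cycle were followed through 50 enzyme genes, listed by name from these pathways out of 55487 genes counted in mouse liver. The rule uses no measured value, but the list was drawn up with earlier results of these data known. All 50 were present in the count tables and all 50 passed the filter on low counts, which kept 13400 genes. RNA was sequenced from whole liver of adult male mice that had been placed on a Western-type diet at 8 weeks of age and stayed on it for 12 weeks. The 4 control mice (154, 159, 181 and 193) were Mc1r fl/fl, with both copies of Mc1r flanked by loxP sites, age-matched and described without Cre. The 4 Mc1r LKO mice (141, 156, 157 and 182) came from crossing Mc1r fl/fl mice with Alb Cre/+ mice, in which the albumin promoter drives Cre in hepatocytes. The study calls the loss of the melanocortin 1 receptor hepatocyte-specific, and the state of its gene in other liver cells was not measured here. The study does not describe Cre-positive mice without the floxed allele, so an effect of Cre and of the deletion cannot be told apart. The comparison asks whether loss of the receptor in hepatocytes was accompanied by a different level of these enzymes.

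The liver is the main site where amino acids are broken down. Aminotransferases and dehydrogenases remove the amino group, the urea cycle turns the resulting ammonia into urea, and the carbon skeletons enter glucose, ketone body or fat metabolism. Several of the enzymes are textbook targets of glucocorticoids and glucagon, which raise them when amino acids are used to make glucose. Tyrosine aminotransferase (Tat), tryptophan dioxygenase (Tdo2) and serine dehydratase (Sds) are the classical examples, and the set called hormone-responsive here adds Got1, Gpt, Gpt2, Cps1, Ass1, Asl, Arg1, Hal and Gls2, 12 genes in all, against 38 other members. No response to these hormones was measured, so the 38 are not shown to be unresponsive.

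Total counts per mouse ran from 10773151 to 24763375 read pairs, and a member had between 98 and 55322 read pairs in a mouse. Counting error was small beside the spread between mice for most members, but not for those with the fewest read pairs, such as Sdsl. The targeted gene Mc1r had 0 counts in all 8 mice, which allows up to 3 counts or 0.121 to 0.278 CPM (counts per 1000000 counts of the library) by counting error, and so the genotypes could not be checked on it. Mice of a genotype differed by more than sampling noise in each pair, with a chi-square over its degrees of freedom of at least 11.6. The hepatocyte markers were all detected, with a summed level of 79311 to 97200 CPM in control and 85194 to 103951 CPM in Mc1r LKO mice. Markers of pancreatic acinar cells summed to at most 0.211 CPM with 4 of 5 at 0 in every mouse, and those of kidney tubule to at most 0.977 CPM, also with 4 of 5 at 0. Lymphocyte markers summed to 1.54 to 4.46 CPM, cholangiocyte markers to 27.0 to 260 CPM and adipocyte markers to 32.1 to 194 CPM, the last with Lep at 0 throughout. Mc1r LKO mouse 182 stood apart over the whole transcriptome, with the highest level of the 8 mice in 20.2% and the lowest in 21.7% of all genes tested.

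Of the 50 enzymes, Tat and Arg1 were higher in Mc1r LKO mice at an unadjusted p-value under 0.05, none was lower, and none passed after adjustment. The share called, 4% of the members, was below the 6.72% of all genes tested that had such a p-value (3.86% higher and 2.87% lower in Mc1r LKO mice). Of all genes called, 57.4% were higher in Mc1r LKO mice, and 28.3% with scaling by library size alone, under which Tat kept its call. In none of the 50 did every Mc1r LKO mouse lie on the same side of every control mouse, which was the case for 4.16% of all genes tested. After Benjamini-Hochberg adjustment, edgeR's quasi-likelihood test called 0 of the 13400 genes (0%), against 901 before adjustment, and DESeq2 called 17 after its own adjustment, none of them a member. The smallest adjusted p-value of a member was 0.734 (edgeR), and over the alternatives run it was never below 0.518.

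The median log2 fold change over the 50 enzymes was 0.06, with 40 higher and 10 lower in Mc1r LKO mice, against a median of -0.01 over all genes tested, of which 47.9% were higher. The 8 hepatocyte markers were all higher too (median 0.153), and the 8 markers of Kupffer cells and macrophages all lower (median -0.414). Of 6 endothelial markers 5 were lower, of 6 stellate cell and fibroblast markers 4, and the 4 cholangiocyte markers tested were all higher. None of these markers passed after adjustment, and their relation to the members was not tested. The number of higher members depended on the mice included. Without Mc1r LKO mouse 182, 18 of the 50 were higher and the median was -0.03, while 47.0% of all genes were higher. Without control mouse 181, 47 of the 50 were higher and the median was 0.14, while 49.4% of all genes were higher. The number was 44 without Mc1r LKO mouse 157, 43 without Mc1r LKO mouse 141 and 28 without control mouse 154. With any other single mouse left out it was between 38 and 41. Without mice 181 and 182 together it was 32. It was 29 with scaling by library size alone or with sample quality weights. Scaling by library size alone also lowered the share of all genes that were higher, to 38.2%. The 95% interval of the genotype difference lay within 2-fold either way for 46 members and within 1.5-fold for 34, and for none of the members was the fitted fold change larger than the range between mice of the same genotype.

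**Figure D1:**
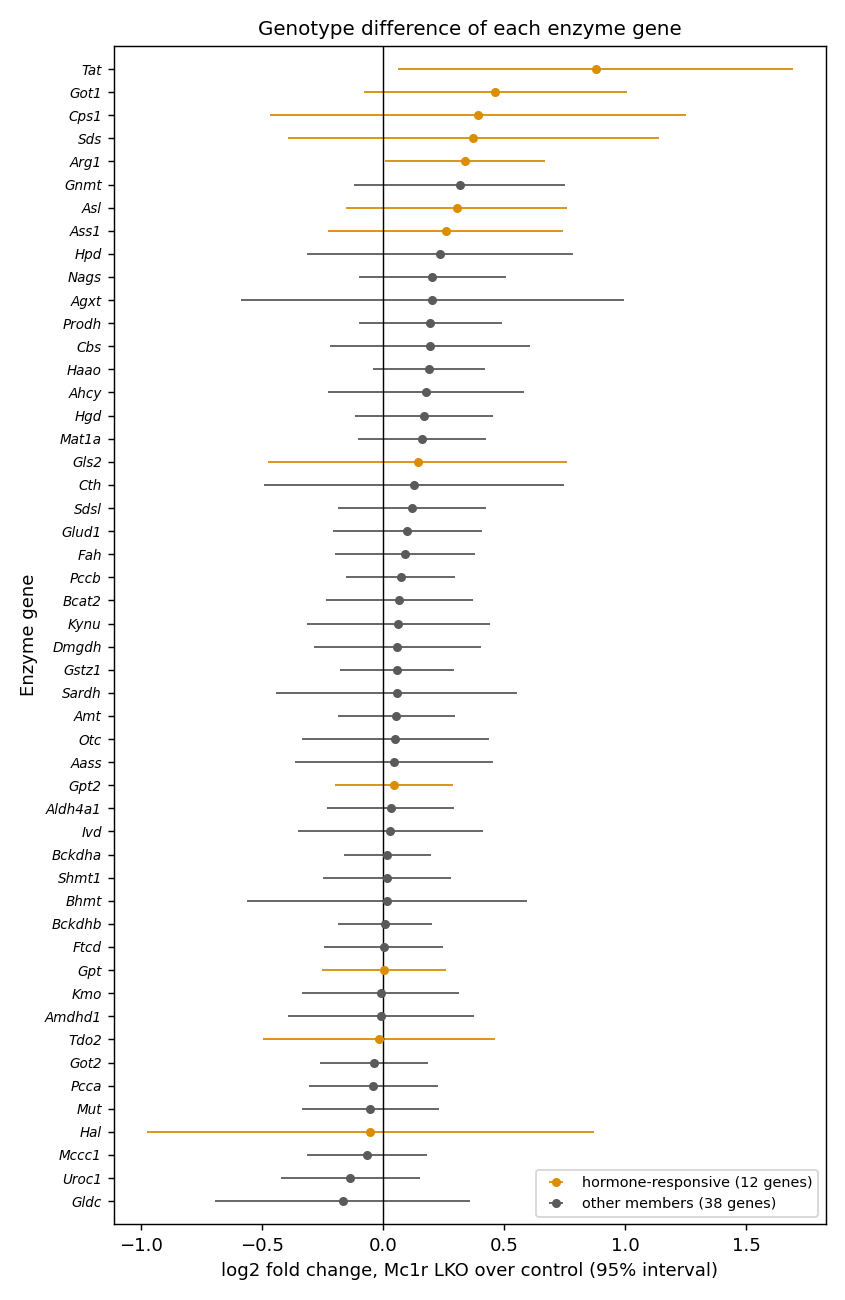
Log2 fold change (x axis, Mc1r LKO over control, points) with 95% interval (bars) for each of the 50 enzyme genes (y axis, ordered by fold change), 12 hormone-responsive genes in orange and 38 others in grey. Only the intervals of Tat and Arg1 lie above 0, and 42 of the 50 points lie within 0.25 of 0.

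Tat, which catalyses the first step of tyrosine breakdown, had the largest fold change. The gene (ENSMUSG00000001670) lies on chromosome 8 of GRCm38 from 109990437 to 109999803. In control mice 154, 159, 181 and 193 it was at 347, 362, 851 and 495 CPM, and in Mc1r LKO mice 141, 156, 157 and 182 at 1299, 1138, 407 and 937 CPM. All values by mouse below keep this order. Of the Mc1r LKO mice, 3 stood above every control mouse, but mouse 157 lay below control mice 181 and 193, so the groups overlapped. Control mice averaged 514 ± 235 CPM and Mc1r LKO mice 945 ± 388 CPM (SD, n = 4 each). The log2 fold change was 0.88 (standard error 0.37, 95% interval 0.06 to 1.69), with an unadjusted p of 0.0374 and an adjusted p of 0.734 in edgeR's quasi-likelihood test. Leaving out mouse 157 raised it to 1.14 (unadjusted p = 0.00394, edgeR) and set Tat apart between the genotypes, and leaving out control mouse 181 raised it to 1.24 (unadjusted p = 0.00484, edgeR). Without mouse 182 it was 0.89 (unadjusted p = 0.0480, edgeR), whereas without any of mice 154, 159, 193, 141 or 156 the unadjusted p lay between 0.0709 and 0.109 in the same test. With robust dispersion it was 0.0646 (edgeR).

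The promoter windows of Tat, of Got1, the member with the next largest fold change, and of Tdo2, a classical hormone-induced enzyme whose genotype means were nearly equal, are shown to set hormone-responsive enzymes with different fold changes side by side. They run from 250 bases before to 50 after the transcription start of RefSeq on GRCm38.p6, 5′ to 3′ on the strand of the gene, and capitals mark the CCAAT box on either strand (CCAAT or ATTGG). The windows are chr8:109990186-109990485 on the plus strand for Tat, chr19:43524556-43524855 on the minus strand for Got1 and chr3:81975679-81975978 on the minus strand for Tdo2.
Tat: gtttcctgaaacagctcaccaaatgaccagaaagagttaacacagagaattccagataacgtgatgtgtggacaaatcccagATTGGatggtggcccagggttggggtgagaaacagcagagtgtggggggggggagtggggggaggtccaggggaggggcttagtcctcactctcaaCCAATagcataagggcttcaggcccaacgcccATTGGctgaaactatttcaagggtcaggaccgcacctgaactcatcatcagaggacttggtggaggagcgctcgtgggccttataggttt
Got1: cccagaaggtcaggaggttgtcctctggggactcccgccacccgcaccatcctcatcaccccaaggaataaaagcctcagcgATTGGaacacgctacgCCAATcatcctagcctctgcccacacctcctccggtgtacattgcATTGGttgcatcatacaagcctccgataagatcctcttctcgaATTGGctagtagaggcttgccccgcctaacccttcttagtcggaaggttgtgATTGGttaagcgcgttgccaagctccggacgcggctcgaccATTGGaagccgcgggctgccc
Tdo2: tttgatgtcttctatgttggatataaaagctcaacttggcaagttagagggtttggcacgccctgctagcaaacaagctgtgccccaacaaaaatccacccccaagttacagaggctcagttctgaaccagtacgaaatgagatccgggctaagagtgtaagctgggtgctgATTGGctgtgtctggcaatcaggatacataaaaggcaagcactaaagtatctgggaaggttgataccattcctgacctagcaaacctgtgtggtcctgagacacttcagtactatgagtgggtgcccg

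The CCAAT box occurred 3 times in the Tat window, 6 times in that of Got1 and 1 time in that of Tdo2. Promoters were matched by symbol for 39 of the 50 members, 20 of which (51.3%) held a CCAAT box in at least 1 window, against 41.1% of the 27025 genes in the RefSeq set counted in the same way. Over single windows the share was 37.4% of 32851. The further shares are of genes. The palindromic glucocorticoid response element (the arm AGAACA, any 3 bases and the reverse complement of the arm) was found in 0 of the 39 and in 0.0111% of all genes. The single arm AGAACA was found in 5 members (Agxt, Bckdhb, Haao, Kmo and Pccb, 12.8% against 21.3% of all genes), none of them among the 6 hormone-responsive members with a window. The cAMP response element arm TGACG was found in 6 members (Aass, Ftcd, Gstz1, Nags, Pcca and Shmt1, 15.4% against 23.0%) and the C/EBP site TTGCNNAA in 3 (Aass, Hal and Hgd, 7.69% against 12.2%). All motifs were searched on both strands, and each full glucocorticoid element also counts as 2 single arms. Enhancers outside these windows were not examined.

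The other enzymes of tyrosine breakdown differed less than Tat. Hpd, hydroxyphenylpyruvate dioxygenase, was at 768, 1074, 1432 and 1252 CPM in control and 1266, 1113, 945 and 2008 CPM in Mc1r LKO mice. Mouse 182 was the highest and control mouse 154 the lowest, and the log2 fold change was 0.24 (95% interval -0.31 to 0.79). Hgd (homogentisate dioxygenase), Fah (fumarylacetoacetate hydrolase) and Gstz1 (maleylacetoacetate isomerase) had log2 fold changes of 0.17, 0.09 and 0.06. None of these 4 passed an unadjusted p-value of 0.05.

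In the tryptophan pathway no enzyme passed the test. Tdo2 (chromosome 3, 81957090 to 81976202), which opens the ring of tryptophan, was at 766, 855, 1281 and 1213 CPM in control and 1089, 739, 882 and 1355 CPM in Mc1r LKO mice. Its levels overlapped fully between the genotypes, with means of 1029 ± 256 and 1016 ± 268 CPM (SD, n = 4 each) and a log2 fold change of -0.02 (95% interval -0.50 to 0.46). Haao, which acts late in the kynurenine pathway, had the smallest p-value of the 4 (log2 fold change 0.19, unadjusted p = 0.0962, edgeR). Kmo (kynurenine monooxygenase) and Kynu (kynureninase) had log2 fold changes of -0.01 and 0.06.

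All 6 urea cycle genes had a higher mean in Mc1r LKO mice, and Arg1 passed the unadjusted test. Arg1, the liver arginase that releases urea (ENSMUSG00000019987, chromosome 10, 24915221 to 24927484), was at 733, 950, 1054 and 866 CPM in control and 1309, 1075, 901 and 1273 CPM in Mc1r LKO mice. Mouse 157 was again the Mc1r LKO mouse within the control range, while the other 3 lay above it. The means were 901 ± 136 and 1140 ± 189 CPM (SD, n = 4 each), and the log2 fold change was 0.34 (standard error 0.15, 95% interval 0.01 to 0.67, unadjusted p = 0.0454, adjusted p = 0.735, edgeR). With a single mouse left out, Arg1 kept an unadjusted p under 0.05 only without control mouse 181 or Mc1r LKO mouse 157; without any of the other 6 it was between 0.0565 and 0.128 (edgeR), and with scaling by library size alone it was 0.0509.

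Cps1, which makes carbamoyl phosphate from ammonia and sets the entry into the cycle (chromosome 1, 67123026 to 67231259), was at 743, 868, 1787 and 1181 CPM in control and 1321, 1114, 772 and 2804 CPM in Mc1r LKO mice. Mouse 182 held the highest value and control mouse 181 the next, and the remaining Mc1r LKO mice lay inside the control range. The log2 fold change of 0.39 had a 95% interval of -0.47 to 1.25, and it was -0.10 without mouse 182.

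Otc (ornithine transcarbamylase) was at 299, 382, 455 and 418 CPM in control and 370, 376, 324 and 539 CPM in Mc1r LKO mice. Ass1 (argininosuccinate synthase) was at 674, 988, 1256 and 984 CPM and at 1190, 1209, 773 and 1498 CPM. For both, mouse 182 was the highest and control mouse 154 the lowest of the 8, and the log2 fold changes were 0.05 (95% interval -0.34 to 0.44) and 0.26 (-0.23 to 0.75).

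Asl (argininosuccinate lyase) was at 228, 232, 371 and 262 CPM in control and 327, 297, 259 and 467 CPM in Mc1r LKO mice. Nags, whose product activates Cps1, was at 37.7, 44.1, 48.1 and 49.3 CPM and at 50.5, 49.1, 42.5 and 64.5 CPM. Their log2 fold changes were 0.30 (95% interval -0.15 to 0.76) and 0.20 (-0.10 to 0.51), and the genotypes overlapped in both. Without control mouse 181 the value of Asl was 0.49 (unadjusted p = 0.0273, edgeR), and without Mc1r LKO mouse 182 it was 0.11 (unadjusted p = 0.534, edgeR). With any other single mouse left out, the unadjusted p of Asl lay between 0.0791 and 0.334 (edgeR).

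Among the enzymes that move amino groups and glutamate, Got1, the cytosolic aspartate aminotransferase (chromosome 19, 43499752 to 43524605), differed most. It was at 69.1, 67.8, 119 and 78.2 CPM in control and 117, 137, 67.3 and 139 CPM in Mc1r LKO mice, where mouse 157 was the lowest of all 8 and control mouse 181 lay with the higher Mc1r LKO mice. The log2 fold change was 0.46 (standard error 0.24, 95% interval -0.08 to 1.01, unadjusted p = 0.0861, edgeR). It was 0.66 without mouse 157 (unadjusted p = 0.00812, edgeR) and 0.69 without mouse 181 (unadjusted p = 0.0127, edgeR). With any other single mouse left out it lay between 0.36 and 0.46, with an unadjusted p between 0.132 and 0.199 (edgeR).

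The mitochondrial partner Got2 had a log2 fold change of -0.04 (95% interval -0.26 to 0.19). Gpt, the cytosolic alanine aminotransferase, was at 202, 244, 263 and 274 CPM in control and 260, 254, 214 and 257 CPM in Mc1r LKO mice. Its means were equal at 246 CPM, with a 95% interval of the log2 fold change from -0.25 to 0.26. Gpt2, the mitochondrial form, was at 649, 566, 568 and 620 CPM and at 651, 688, 627 and 511 CPM. Unlike most members it was lowest in mouse 182, and its log2 fold change was 0.04 (95% interval -0.20 to 0.29).

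Gls2, the liver-type glutaminase that releases ammonia from glutamine, was at 90, 134, 213 and 148 CPM in control and 153, 150, 105 and 238 CPM in Mc1r LKO mice (log2 fold change 0.14, 95% interval -0.48 to 0.76). Mice 181 and 182 were the highest of their genotypes. Glud1 (glutamate dehydrogenase) had a log2 fold change of 0.10 and its level in mouse 182, 1430 CPM, was above the 898 to 1108 CPM of the other 7 mice.

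In the histidine pathway 3 of 4 genes had a negative and 1 a positive log2 fold change, and none passed the test. Hal, which releases ammonia from histidine (chromosome 10, 93488768 to 93519304), was at 61.6, 110, 200 and 150 CPM in control and 99.5, 85.8, 75.4 and 242 CPM in Mc1r LKO mice. Mouse 182 was more than 2-fold above the other Mc1r LKO mice, and the log2 fold change of -0.05 (95% interval -0.98 to 0.87) was -0.58 without it (unadjusted p = 0.0925, edgeR). Uroc1 (urocanate hydratase) was at 414, 471, 581 and 495 CPM and at 414, 434, 402 and 535 CPM, a log2 fold change of -0.13 (95% interval -0.42 to 0.15), among the lowest of all members. Amdhd1 (imidazolonepropionase) and Ftcd (formimidoyltransferase cyclodeaminase) were at -0.01 and 0.00 on the same scale.

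Sds, which deaminates serine to pyruvate (chromosome 5, 120476526 to 120483932), was at 62.5, 140, 136 and 138 CPM in control and 199, 208, 67.4 and 142 CPM in Mc1r LKO mice. Control mouse 154 and Mc1r LKO mouse 157 were low, at less than 1 in 2 of the next value of their genotype, and mice 141 and 156 were the highest. The log2 fold change was 0.37 (95% interval -0.39 to 1.14, unadjusted p = 0.304, edgeR). It was 0.63 without mouse 157 (unadjusted p = 0.0424, edgeR) and 0.165 without mouse 154 (unadjusted p = 0.615, edgeR). With any other single mouse left out, the unadjusted p lay between 0.266 and 0.609 (edgeR). The related Sdsl, which lies nearby on the opposite strand, stayed between 9.11 and 12.7 CPM in all mice.

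In methionine and homocysteine metabolism all 6 means were higher in Mc1r LKO mice and none passed the test. Gnmt, which consumes surplus methyl groups, had the largest log2 fold change of the members outside the hormone-responsive set, 0.32 (95% interval -0.12 to 0.75), with 566 to 951 CPM in control and 653 to 1187 CPM in Mc1r LKO mice. Mat1a, the liver methionine adenosyltransferase, had the highest CPM of the set, 2149 ± 264 in control and 2402 ± 230 in Mc1r LKO mice (SD, n = 4 each). Bhmt (betaine-homocysteine methyltransferase) ranged from 1166 CPM in mouse 154 to 2827 CPM in mouse 182, with a log2 fold change of 0.02. Cbs, Cth and Ahcy were at 0.19, 0.13 and 0.18.

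Branched-chain and propionate breakdown was the most even part of the set. The log2 fold changes of its 8 genes (Bcat2, Bckdha, Bckdhb, Ivd, Mccc1, Mut, Pcca and Pccb) lay between -0.07 and 0.07. Bckdha, a subunit of the branched-chain ketoacid dehydrogenase, had 264 to 298 CPM in control and 279 to 304 CPM in Mc1r LKO mice, the narrowest range of all members, and its interval of -0.16 to 0.20 was the narrowest too. For proline, Prodh was at 0.20 and Aldh4a1 at 0.03 on the log2 scale; 32.5% of the exon bases of Aldh4a1 are shared with Gm21969 on the same strand, where read pairs can be lost. Aass, for lysine, was at 0.04.

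Of the glycine and folate-linked enzymes, Gldc, the decarboxylase of the glycine cleavage system, had the most negative log2 fold change of all members. It was at 226, 185, 320 and 219 CPM in control and 141, 195, 198 and 315 CPM in Mc1r LKO mice, and mice 181 and 182 were the highest of their genotypes. The log2 fold change was -0.17 (95% interval -0.69 to 0.36), and -0.42 without mouse 182 (unadjusted p = 0.0496, edgeR). Without control mouse 181 it was 0.013 (unadjusted p = 0.955, edgeR), and without Mc1r LKO mouse 141 it was -0.005 (unadjusted p = 0.982, edgeR). Agxt, which converts glyoxylate to glycine, had the widest range of the set, from 45.0 CPM in mouse 154 to 182 CPM in mouse 182, and a log2 fold change of 0.20 (95% interval -0.59 to 0.99). Amt, Shmt1, Dmgdh and Sardh lay between 0.02 and 0.06.

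**Figure D2:**
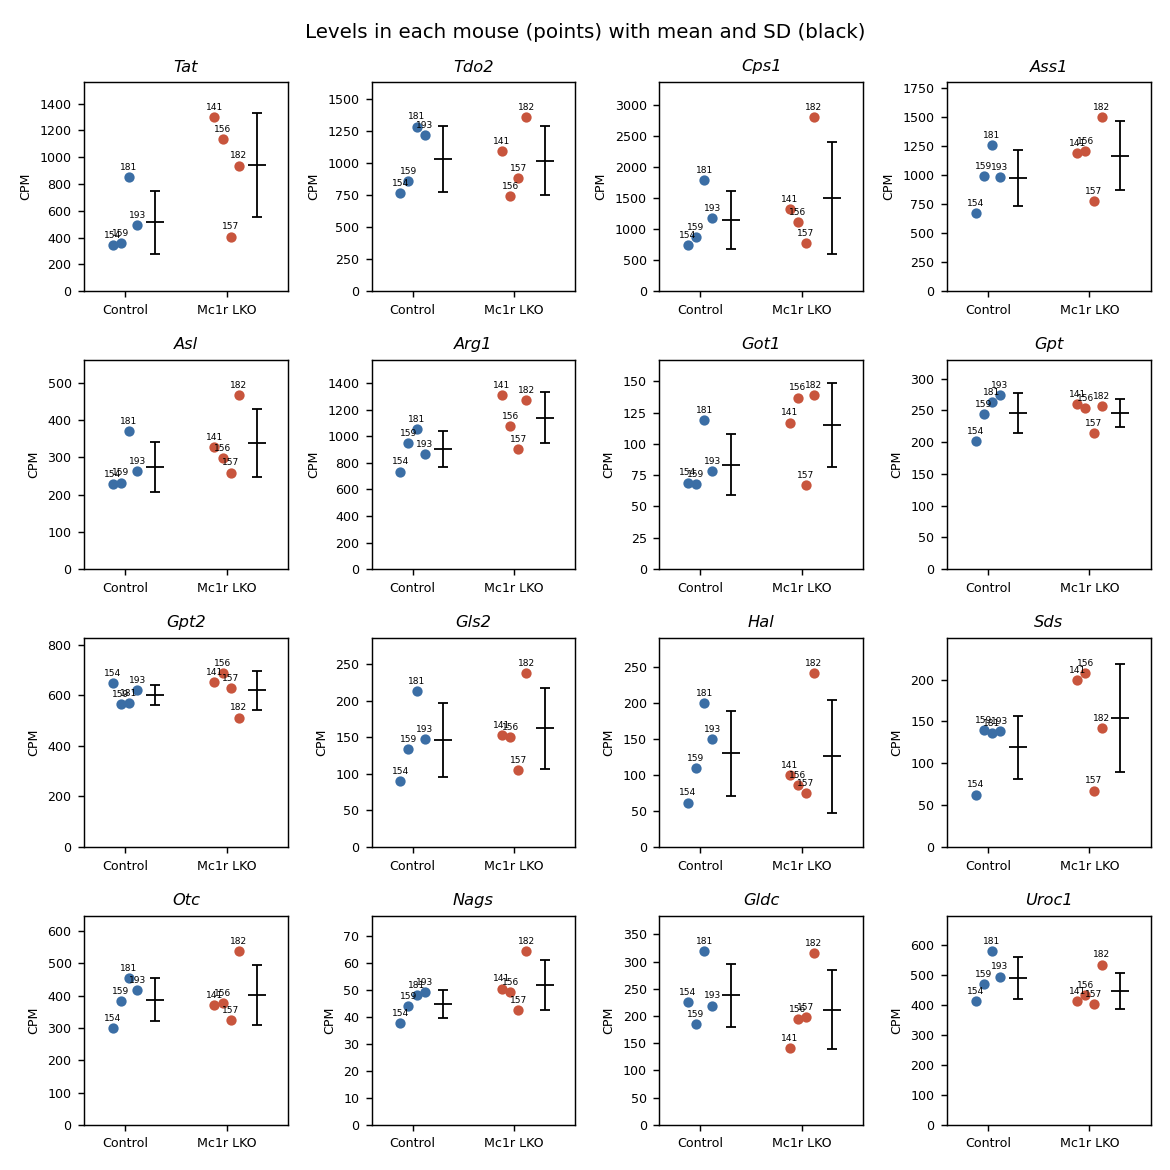
CPM (y axis, from 0) of the 16 members described by mouse, with 1 point per mouse labelled by its number, control in blue and Mc1r LKO in red, and the mean with SD (n = 4) in black. The genotypes overlap in every panel, and in the panels of Tat, Arg1 and Got1 mouse 157 is the lowest Mc1r LKO point.

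The hormone-responsive enzymes were compared with the other members by counts and medians, without a test. Their median log2 fold change was 0.28, with 10 of 12 higher in Mc1r LKO mice, against 0.06 and 30 of 38 for the others and 47.9% higher among all genes tested. The log2 fold change was 0.25 or more away from 0 in 7 of the 12 and in 1 of the 38, against 25.4% of all genes tested. Both genes called at the unadjusted p-value belonged to the 12 (16.7%, against 6.72% of all genes tested). Within the 12, Tat, Got1, Cps1, Sds, Arg1, Asl and Ass1 were at 0.26 or more, while Gls2, Gpt2, Gpt, Tdo2 and Hal lay between -0.05 and 0.14. The median of the 12 was 0.12 without mouse 182 and 0.14 without mouse 154 or with sample quality weights, where that of the others was -0.04, 0.01 and 0.02. Without mouse 181 the medians were 0.416 and 0.115, and without mouse 157 they were 0.421 and 0.125. The 12 also varied more between mice: the highest over the lowest of the 8 mice had a median of 2.14-fold, against 1.53-fold for the others and 1.63-fold for all genes tested.

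**Figure D3:**
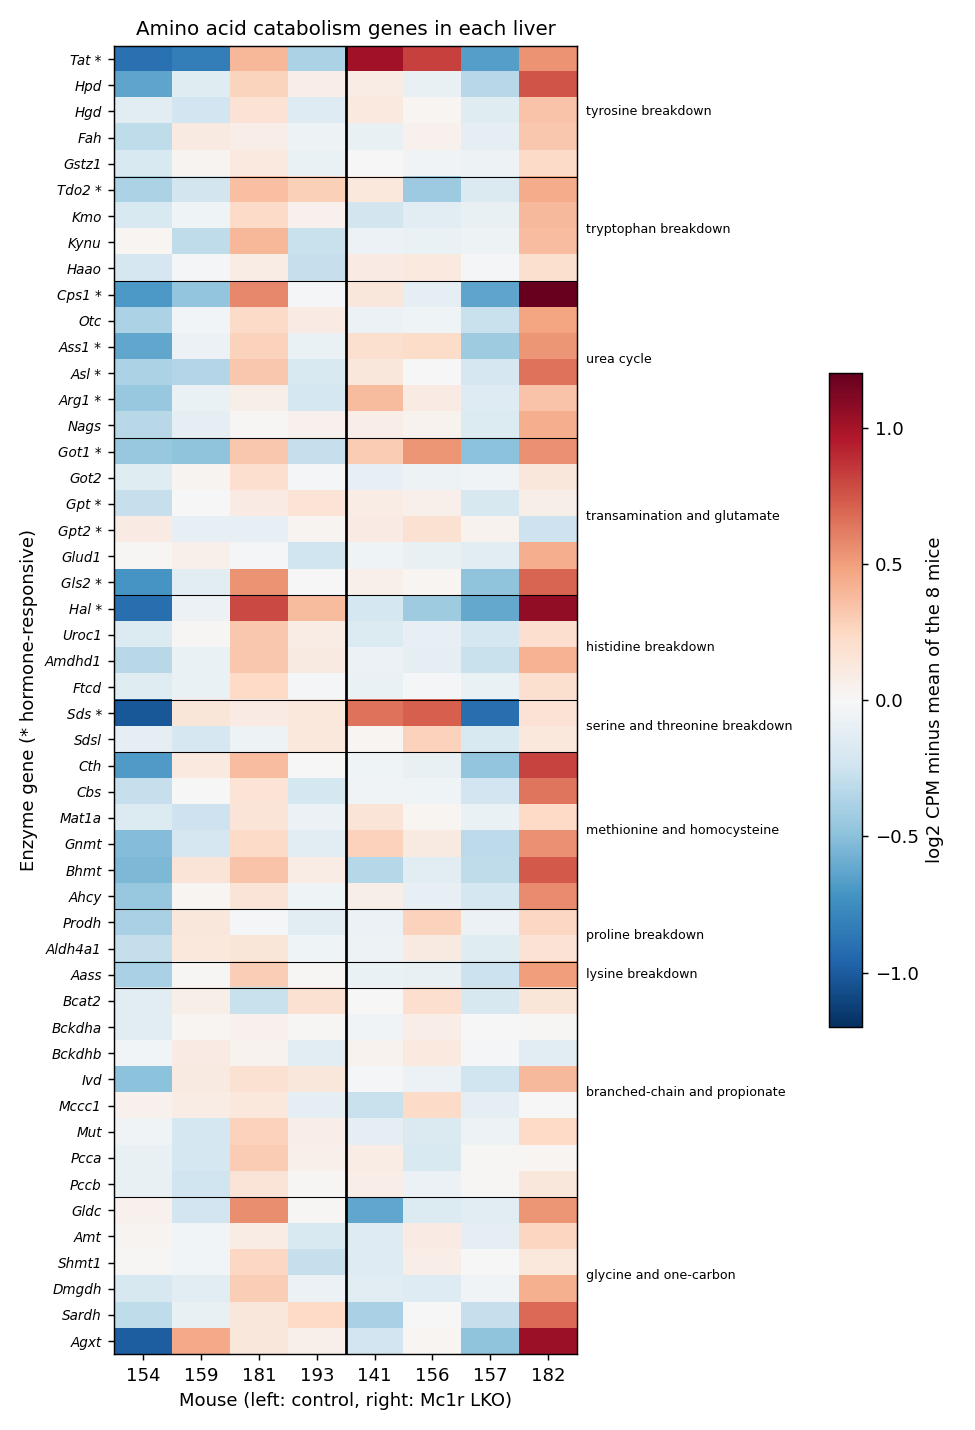
Log2 CPM of the 50 enzyme genes (rows, grouped by pathway, asterisks for hormone-responsive genes) in each mouse (columns, control left and Mc1r LKO right of the line), coloured by the difference from the mean of the 8 mice. Mouse 182 is red in most rows and mouse 154 blue, while in the rows of Tat and Sds mice 141 and 156 are the reddest.

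In each member the range between single mice of a genotype was larger than the fitted fold change between the genotypes. A range of single mice tends to exceed a difference of means, so this does not set the genotype difference against its error. Mouse 182 had the highest level of 30 of the 50 members (60%), against 20.2% of all genes tested and 62.5% of the 8 hepatocyte markers. Control mouse 181 was the highest for 9 members. Both were the top pair of mice for 29 members. Control mouse 154 had the lowest level of 29 members (58%, against 10.9% of all genes tested and 50% of the hepatocyte markers). Among Mc1r LKO mice 157 was the lowest for 32 members. The median difference of the 50 members from the mean of the 8 mice was 0.38 on the log2 scale in mouse 182, 0.19 in 181, -0.17 in 157 and -0.28 in 154, and lay between -0.06 and 0.00 in the other 4, where the median over all genes tested was at most 0.01 in every mouse. In the hormone-responsive set the same mice reached 0.53, 0.32, -0.46 and -0.54.

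The widest ranges over the 8 mice belonged to Agxt (4.05-fold), Hal (3.93-fold), Cps1 (3.77-fold), Tat (3.74-fold) and Sds (3.33-fold), and the narrowest to Bckdha (1.15-fold) and Bckdhb (1.19-fold). Cps1, Hal and Agxt were highest in mouse 182, whereas Tat was highest in mouse 141 and Sds in mouse 156. The members took between 1.85% and 2.86% of all counts of a mouse, with means of 2.21 ± 0.306% in control and 2.37 ± 0.379% in Mc1r LKO mice (SD, n = 4 each).

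Marker sums of other liver cells were low in the mice with the highest members, and mostly in the upper part of their genotype in those with the lowest. The markers of Kupffer cells and macrophages (all 8 detected in every mouse) summed to 265 to 613 CPM in control and 174 to 435 CPM in Mc1r LKO mice, those of endothelial cells (all 6) to 207 to 257 and 142 to 228 CPM, and those of stellate cells and fibroblasts (all 6) to 244 to 539 and 208 to 444 CPM. Each of these sums was lowest of all in mouse 182 and lowest among control mice in 181. Mice 154 and 157, in which the members were low, had 321 and 309 CPM of Kupffer cell markers, 257 and 220 CPM of endothelial and 369 and 393 CPM of stellate markers, of which only the endothelial sum of 154 was the highest of its genotype. The other sums of these mice came next below the highest of their genotype, except the Kupffer cell sum of 154, which was lower. The hepatocyte markers were highest in 182 (103951 CPM) and lowest in 154 (79311 CPM), but 181 (86509 CPM) was below control mouse 159 (97200 CPM). Their part in the levels of the enzymes was not tested, and in whole liver fewer cells of a type and less RNA per cell cannot be told apart. Without mice 181 and 182 together, 5 members had an unadjusted p-value under 0.05 (Tat, Asl, Arg1, Got1 and Haao, all higher in Mc1r LKO mice), against 7.33% of all genes in the same fit. In that fit 32 of 50 were higher, against 48.5% of all genes. None of the members was set apart between the genotypes, against 13% of all genes.

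**Figure D4:**
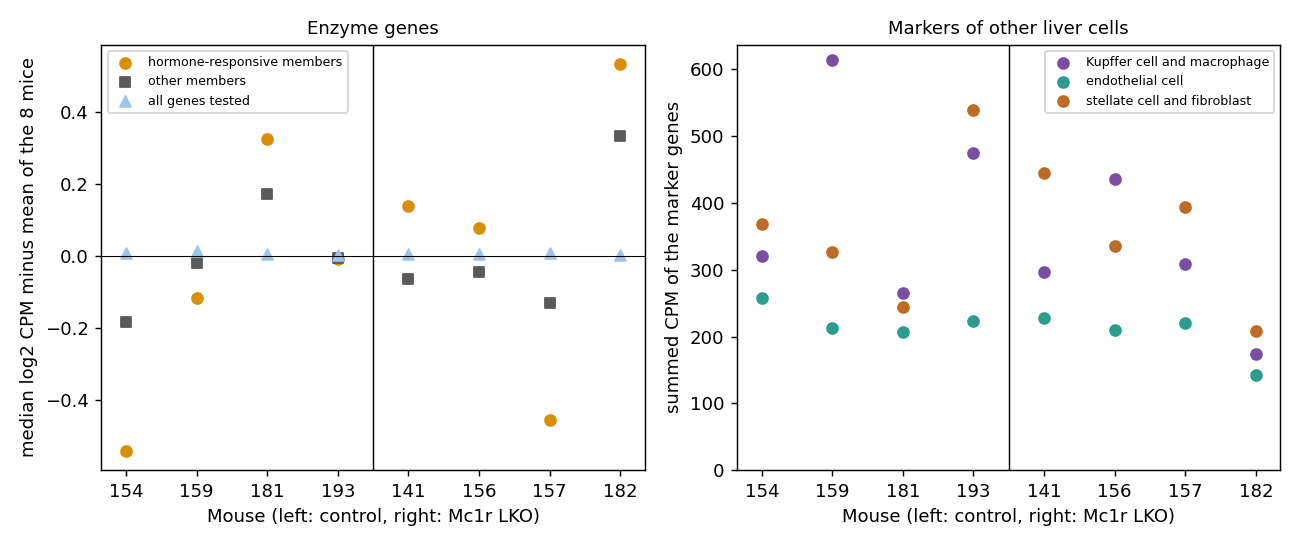
Left, median difference of log2 CPM from the mean of the 8 mice (y axis) for hormone-responsive members, other members and all genes tested in each mouse (x axis); right, summed CPM of marker genes of other liver cells in each mouse (y axis from 0). Mice 181 and 182 have the highest medians of their genotypes for both sets of members on the left, where the medians of all genes stay near 0, and the lowest sums of their genotypes on the right.

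Compared per kilobase of exon, the members spanned from 3.34 CPM per kilobase for Bcat2, the branched-chain aminotransferase, to 620 for Mat1a in control mice. Gnmt (615), Hpd (532), Arg1 (404) and Ass1 (404) followed Mat1a, and Mccc1 (4.89) and Sdsl (6.76) came just above Bcat2. Tat stood at 214 CPM per kilobase in control and 393 in Mc1r LKO mice, and Cps1 at 206 and 271. Got2 was at 83.4 and Got1 at 32.9 in control mice, and Gpt2 at 106 and Gpt at 83.5, so that in both aminotransferase pairs the mitochondrial form had the higher level per length. The length counts every annotated exon base of a gene and can exceed that of the transcripts present. The close order of Gpt2 and Gpt may therefore depend on it.

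**Figure D5:**
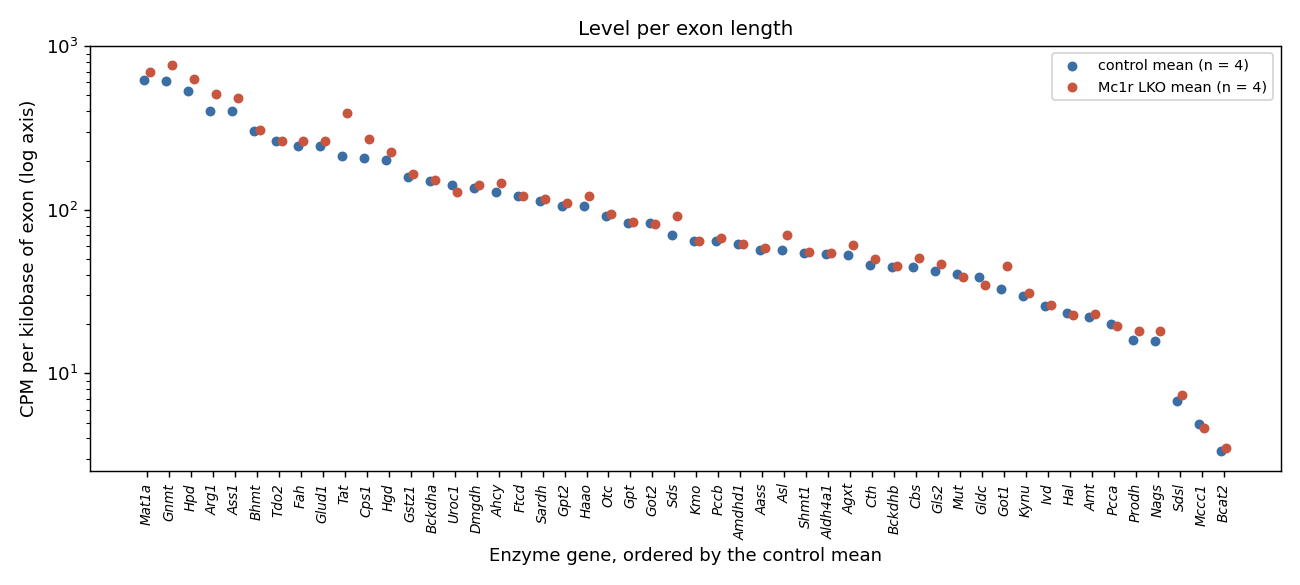
Mean CPM per kilobase of exon (y axis, log scale) of the 50 enzyme genes (x axis, ordered by the control mean), control in blue and Mc1r LKO in red, n = 4 each. The levels run from 3.34 to 620 in control mice, and the widest gap between a blue and a red point is that of Tat (214 and 393).

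Of 67 further enzymes of amino acid metabolism 61 were tested, with 3 higher and 1 lower in Mc1r LKO mice at an unadjusted p-value under 0.05. The share called, 6.56%, was near the 6.72% of all genes tested. The pattern between mice resembled that of the members. Mouse 182 was the highest for 39.3% (20.2% of all genes tested) and mouse 154 the lowest for 29.5% (10.9%). In Mc1r LKO mice 62.3% were higher, against 47.9% of all genes tested. Asns, which makes asparagine, was at 1.38, 0.558, 2.24 and 0.775 CPM in control and 3.46, 1.75, 1.98 and 2.91 CPM in Mc1r LKO mice (log2 fold change 0.99, unadjusted p = 0.0402, edgeR). Oat, which links ornithine to proline and glutamate, had a log2 fold change of 0.28, Cdo1, which oxidizes cysteine, 0.28, and Ddo, which oxidizes D-aspartate, -0.26. In none of the 4 were the genotypes apart. Of 15 amino acid transporters 1 was called (6.67%), and 60% were highest in mouse 182 and 40% lowest in mouse 154. The one called was Slc38a2, a sodium-coupled neutral amino acid transporter, at 83.0, 59.8, 88.5 and 56.6 CPM in control and 83.0, 92.7, 82.0 and 140 CPM in Mc1r LKO mice (log2 fold change 0.47, unadjusted p = 0.0441, edgeR).

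Among 20 regulators and readouts of hormone signals, a list that holds genes known from these data to differ and so gives no independent evidence, 6 were higher and 0 lower at an unadjusted p-value under 0.05, and in 4 of them the genotypes did not overlap, against 6.72% called and 4.16% not overlapping among all genes tested. Fkbp5, a glucocorticoid-induced chaperone partner, had a log2 fold change of 1.09, the transcription factor Cebpd 0.82 and Foxo1, a factor restrained by insulin, 0.45, each with every Mc1r LKO mouse above every control mouse. None of these passed after adjustment, with an adjusted p of 0.118 for Fkbp5 (edgeR). By qPCR in its larger set of livers, the paper reports Fkbp5 only as tending to be higher. Tsc22d3, another glucocorticoid-induced gene, was at 0.93 with overlapping groups. Mouse 157, low for Tat, was the lowest Mc1r LKO mouse for Fkbp5 too, at 37.4 CPM, but still above the 16.1 to 22.9 CPM of control mice. Klf15, a glucocorticoid-induced activator of amino acid catabolism genes, was at 101, 96.9, 163 and 142 CPM in control and 207, 168, 113 and 214 CPM in Mc1r LKO mice, with mice 157 and 181 placed as for Tat and a log2 fold change of 0.48 (95% interval -0.01 to 0.97, unadjusted p = 0.0550, edgeR). Pck1, the gluconeogenic enzyme induced by the same hormones, was at 0.47 (95% interval -0.26 to 1.19), the glucocorticoid receptor Nr3c1 at -0.18 (-0.53 to 0.16) and the glucagon receptor Gcgr at -0.04 (-0.22 to 0.14), and none of these 3 passed the test.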

How the data were processed

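Liver RNA of 4 control and 4 Mc1r LKO mice was sequenced as stranded mRNA libraries. Per the labels and file headers, the authors trimmed reads with Trim Galore 0.6.6, aligned them with STAR 2.7.6a and counted read pairs per gene with featureCounts 2.0.1 (strand option 2) on the Ensembl 102 annotation of GRCm38, the build in the labels and headers; the study's methods name a human build label for the mouse genome. The deposited values are whole-number counts, unfiltered and not normalized. Since counting used strand, antisense genes do not share reads, whereas read pairs that overlap more than 1 gene or align to several places are left out by default.

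Symbols came from a table of gene identifiers and matched 55141 of 55487 genes. All 50 members were found. Genes were filtered with filterByExpr (minimum count 10, minimum total count 15, by group), scaled by TMM and tested with the quasi-likelihood test of edgeR 4.0.16 under R 4.3.3. P-values were adjusted over 13400 genes by the method of Benjamini and Hochberg. The methods of the study name the filter and the scaling. CPM values are TMM-scaled, except those of cell type markers and shares of counts, which use the total count alone. Intervals are 95% intervals of the fit, and log2 CPM has a prior count of 2. Scripts were tested on simulated counts. Alternatives were RLE scaling, library size alone, no filter, DESeq2 1.42.0, limma-voom (limma 3.58.1) with and without sample quality weights, robust dispersion, the likelihood ratio test and leaving out mice.

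The members and gene lists were chosen with earlier results of these data known. Values in every mouse are given for the 12 hormone-responsive members, Otc, Nags, members with an unadjusted p-value under 0.05 or non-overlapping genotypes, and the 2 members with the most positive and the 2 with the most negative log2 fold change. From each further list up to 4 genes with an unadjusted p-value under 0.05 were named, and always Klf15, Fkbp5, Nr3c1, Gcgr and Pck1. Other members named for their spread or level between mice, and the promoter motifs, were chosen after the values were seen.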

Additional observations from a re-analysis of the deposited data

Results flagged for a closer look

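By Dixon's test at the 95% level, 3 of the 32 groups of 4 mice checked over the 16 members described by mouse held a mouse far from the others, where chance gives about 1.6. Control mouse 154 had 62.5 CPM of Sds, below the 136 to 140 CPM of the other control mice. Mc1r LKO mouse 182 had 242 CPM of Hal, above the 75.4 to 99.5 CPM of the others of its genotype, and Mc1r LKO mouse 157 had 214 CPM of Gpt, below 254 to 260 CPM.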

How the results depend on the processing

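The number of members with an unadjusted p-value under 0.05 was 2 with all mice and 1 with scaling by library size alone or with robust dispersion. It ran from 0 to 6 with each mouse left out: 6 without control mouse 181, 5 without Mc1r LKO mouse 157, 2 without 182 (Tat higher, Gldc lower) and 0 without any of the other 5. It was 5 without mice 181 and 182 together, an alternative chosen after seeing the data. The other alternatives gave 2 or 3. Without mouse 157, 4 members did not overlap (Tat, Arg1, Sds and Haao, against 7.42% of all genes), and with any other mouse left out 0 (against 6.44% to 8.94%). Over all genes, 0 passed after adjustment in the quasi-likelihood test, 1 without a filter, 8 in the likelihood ratio test and 17 in DESeq2. No member passed after adjustment under any alternative run. The limit of 0.25 on the absolute log2 fold change left both members and 711 of 901 genes. No paired analysis was possible because the mouse numbers of the genotypes are not shared. With 4 mice per genotype and ranges of up to 4.05-fold between mice, differences as small as most of those fitted here could not be told from the spread between mice.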
